A study of Homo sapiens with 40 samples.

Results

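The solute carriers are membrane proteins that move small molecules across the plasma membrane and across the membranes of mitochondria, the Golgi, the endoplasmic reticulum and lysosomes. They were studied here in human microglia-like cells made from H9 embryonic stem cells. A member was any protein-coding gene whose symbol starts with SLC, a family number, letters and a final number, and whose mean level over all 40 RNA-seq libraries was 5 TPM or more, where TPM is a gene's share of the library's transcripts scaled to a fixed total. The iron transporters SLC40A1, SLC11A1 and SLC11A2 were left out by that definition. Of 375 protein-coding SLC genes among 60504 genes measured, 205 lay below the mean of 5 TPM, 3 were left out by name and 167 were members. All 167 passed the filter on low values that the tests used, and since they were selected on their level, their level is described here and never tested.

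All lines share the H9 background. WT is the unedited parent with 7 libraries, TREM2-KO has 8, and TREM2-R47H, SORL1-KO and SORL1-A528T have 7 each. CD33-SNP and INPP5D-SNP have 2 each. The edits were made with CRISPR/Cas9, and the labels give every line as homozygous for its variant, with R744X the SORL1 allele they list besides A528T. For INPP5D, a site at which H9 is heterozygous was made homozygous. Cells were isolated as clones by sorting, and whether a line is a single clone, or its replicates separate cultures, is not stated in the labels, so every p-value here is relative to library-to-library spread that may be only technical. All lines had the same culture: blood progenitors taken at day 11 were kept for 28 days in M-CSF at 25 ng/mL, with IL-34 at 100 ng/mL and TGF-beta 1 at 50 ng/mL. CD200 and CX3CL1 (100 ng/mL each) joined them in the final 3 days. No untreated or stimulated arm was part of the design, and the question set by the labels is how each variant changes expression.

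Macrophages use these carriers in several ways. Glucose enters through SLC2 proteins, and lactate leaves through SLC16A3. Large neutral amino acids enter through SLC7A5, and arginine leaves through SLC7A7, each paired with the heavy chain SLC3A2. Within the cell, SLC25 proteins serve mitochondria, SLC35 proteins carry nucleotide sugars into the Golgi, and SLC15, SLC17, SLC29A3, SLC36A1 and SLC66 proteins serve lysosomes and vesicles. In microglia, SLC2A5 is a fructose carrier often used as a marker, and SLC1A3 is a glutamate carrier better known from astrocytes.

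Across the series, TREM2 was at 24.62 to 46.47 TPM in TREM2-KO and at 294.54 to 585.37 in WT, and SORL1 was at 12.55 to 21.49 in SORL1-KO and at 18.58 to 43.21 in WT. All 10 microglial markers were measured, with a summed level of 4738 to 5302 TPM in WT and 3702 to 7650 over the edited lines of 7 or more libraries. The 4 pluripotency markers stayed below 1 TPM in every library. Markers of stromal and endothelial cells summed to 188.7 to 3205 TPM in WT and to 834.5 to 2198 in INPP5D-SNP, against at most 464.9 in any library of the other lines. 4 libraries stood apart from their groups, with a median correlation of 0.9328 to 0.9496 against 0.965 to 0.9797 for the rest of the 5 large groups: TREM2-KO replicates 4 and 8, SORL1-KO replicate 7 and SORL1-A528T replicate 7. The labels state a mean of 45.13 M reads with a range of 39.2 to 64.6 M, without saying which library had which depth, so no interval from counting could be given.

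The carriers with the highest levels were those of lactate, ADP and ATP, phosphate, nucleosides and amino acids. SLC16A3, the lactate exporter MCT4, led with a mean of 859 TPM over all libraries, followed by the mitochondrial ADP/ATP carriers SLC25A5 at 657 and SLC25A6 at 634 and the mitochondrial phosphate carrier SLC25A3 at 567. Next came the nucleoside carrier SLC29A1 at 326, the arginine and neutral amino acid exchanger SLC7A7 at 250, its heavy chain SLC3A2 at 231 and the lysosomal peptide and histidine carrier SLC15A3 at 189. The glucose 6-phosphate carrier of the endoplasmic reticulum SLC37A2 at 165, SLC35A4 at 156, the zinc importer SLC39A1 at 140 and SLC7A5 at 139 completed the 12 highest. These 12 held 49.6% of the TPM of all members, whose median was 20.9 TPM, and 14 members were at 100 TPM or more, 77 at 20 to 100 and 76 at 5 to 20. Those just above the limit of 5 TPM were SLC35E3, SLC24A1, SLC25A4 and SLC25A53 at 5.69, 5.45, 5.40 and 5.16, and those just below were SLC25A45, SLC22A23, SLC16A5 and SLC16A7 at 4.96, 4.95, 4.88 and 4.48.

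**Figure D1:**
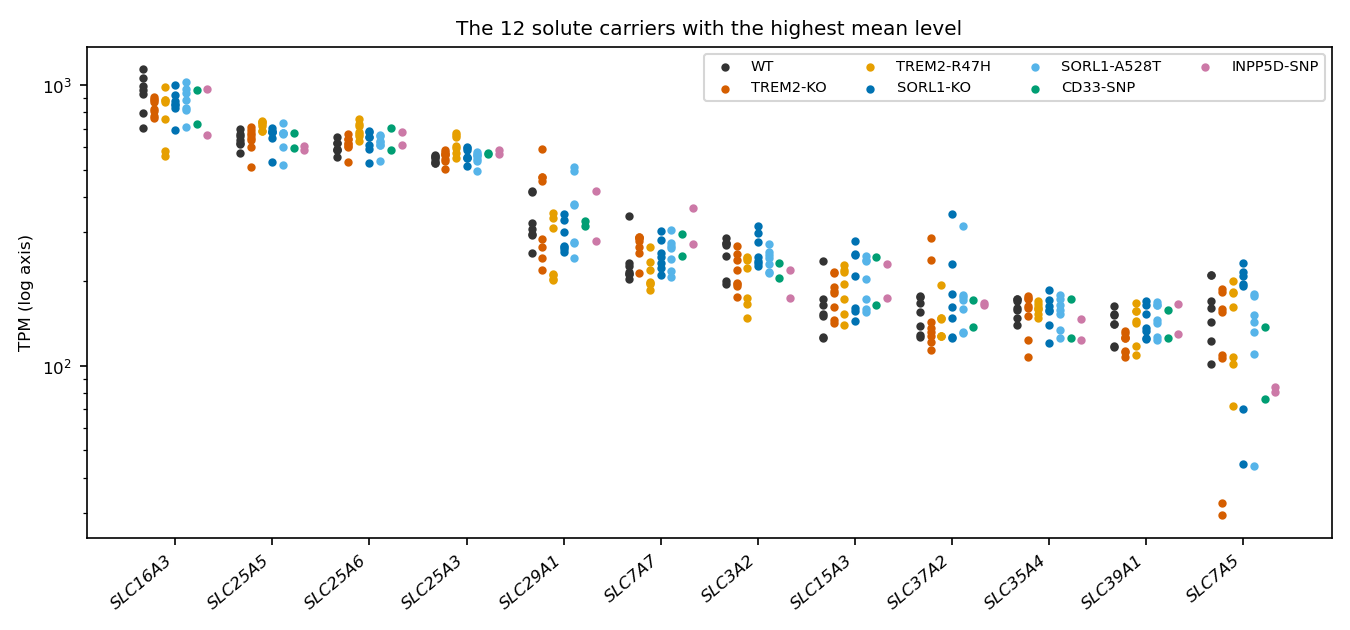
TPM on a log axis for the 12 members with the highest mean level, 1 dot per library, coloured by group. SLC16A3 lies at 558.21 TPM or more in every library, while SLC7A5 spreads from 29.36 to 232.17 TPM.

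In WT, SLC16A3 had 703.57, 959.0 and 1138.41 TPM as its lowest, median and highest value, above every WT value of SLC25A5, which had 573.75, 637.7 and 695.14. SLC25A5 and SLC25A6 overlapped, the latter with 555.51, 592.3 and 652.72, and so did SLC7A7 at 204.59 to 342.96 and SLC3A2 at 195.52 to 285.74. SLC25A5 and SLC25A6 encode nearly identical proteins, so reads may have been split between them and their separate levels are uncertain.

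By class, the 35 mitochondrial carriers held 31.1% of the members' TPM, the 21 amino acid carriers 16.2% and the 4 monocarboxylate carriers 11.0%. The 20 SLC35 proteins, most of them in the Golgi, held 6.97%, the 19 zinc, copper and magnesium carriers 7.65%, the 18 carriers of other ions 6.04% and the 12 sugar carriers 4.64%. Together the members made up 0.87% of all TPM, with sums of 8738 ± 342 TPM (SD, n = 7) in WT, 8678 ± 118 (n = 8) in TREM2-KO, 8505 ± 382 (n = 7) in TREM2-R47H, 8812 ± 321 (n = 7) in SORL1-KO, 8848 ± 219 (n = 7) in SORL1-A528T, 8530 ± 386 (n = 2) in CD33-SNP and 8569 ± 463 (n = 2) in INPP5D-SNP. The ranges of these sums overlapped between groups. The mitochondrial carriers summed to 2831 to 2912 TPM in TREM2-R47H and to 2563 to 2794 in WT, ranges that did not touch, while TREM2-KO covered 2331 to 2849. A sum of this kind follows SLC25A5, SLC25A6 and SLC25A3 most.

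The comparisons below used limma on log2(TPM + 1) over all 14855 genes that passed the filter, and a gene is called where its Benjamini-Hochberg adjusted p was below 0.05. Fold changes are on the log2(TPM + 1) scale with their standard errors, which understates changes of low genes. The comparisons with WT share the 7 WT libraries, so the values of different lines are not independent. In bulk RNA, fewer cells of a type and less RNA per cell cannot be told apart.

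TREM2-R47H had the most member calls of any line against WT. In TREM2-R47H, 4 members were higher and 19 lower than in WT, or 2.40% and 11.4% of the 167 members, where 2.63% and 8.77% of all genes tested were called in those directions. The median log2 fold change of the members was -0.039 and that of all genes -0.057. The members called lower included ion, taurine, monoamine, folate and lysosomal carriers, and the 4 higher ones were SLC35A2, SLC25A3, SLC25A6 and SLC17A5. By class, 3 of 21 amino acid carriers, 3 of 18 carriers of other ions and 2 of 11 carriers of vitamins, haem and choline were lower and none higher, 2 of 35 mitochondrial carriers were higher and 2 lower, and none of the 19 zinc, copper and magnesium carriers was called. After median-ratio scaling, 5 members were higher and 12 lower, against 4.06% and 5.58% of all genes.

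SLC12A7, the potassium-chloride cotransporter KCC4, had the lowest p. It stood at 31.64, 37.8 and 40.63 TPM (lowest, median, highest) in TREM2-R47H and at 49.8, 56.26 and 65.2 in WT. No TREM2-R47H library reached the lowest WT library. The log2 fold change was -0.60 ± 0.08 (SE), with an adjusted p of 3.12e-06 by limma. A pair of other cation-chloride family members fell too, SLC12A9 by 0.35 ± 0.08 on the log2 scale (adjusted p 0.00167, limma) and SLC12A8 by 1.19 ± 0.29 (adjusted p 0.00574, limma). SLC12A8 had 7.88, 8.64 and 17.25 TPM in TREM2-R47H and 17.08, 19.81 and 45.83 in WT, so that its highest edited library just met its lowest WT library. SLC12A8 lost its call once the stromal marker score was a covariate (adjusted p 0.122, limma).

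SLC6A6, the taurine transporter, was at 76.0, 85.6 and 107.49 TPM in TREM2-R47H and at 122.91, 130.3 and 147.91 in WT. Its ranges did not overlap either, with a fold change of -0.56 ± 0.10 and an adjusted p of 0.000285 (limma). SLC18A2, the vesicular monoamine transporter VMAT2, fell the most of all called members. It had 1.8, 2.37 and 3.61 TPM in TREM2-R47H and 7.35, 9.2 and 14.9 in WT, a fold change of -1.63 ± 0.30 with an adjusted p of 0.000227 (limma). SLC46A1, the proton-coupled folate transporter, had 24.64 to 33.59 TPM in TREM2-R47H and 36.38 to 44.08 in WT, again without overlap, and fell by 0.41 ± 0.09 on the log2 scale (adjusted p 0.00332, limma).

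Lysosomal and Golgi carriers were in both directions. SLC66A1, which exports cationic amino acids from lysosomes, had 49.75, 56.12 and 65.86 TPM in TREM2-R47H and 58.76, 82.99 and 85.56 in WT. All edited libraries were below the WT median, and 1 WT library, replicate 4 at 58.76, lay in their range. The fold change was -0.46 ± 0.08 with an adjusted p of 5.65e-05 (limma). SLC35C2, a Golgi SLC35 protein, had 49.53, 59.49 and 67.17 TPM in TREM2-R47H and 63.5, 83.3 and 90.49 in WT, where the lowest value was again that of replicate 4. It fell by 0.44 ± 0.07 on the log2 scale (adjusted p 2.54e-05, limma). SLC17A5, the lysosomal sialic acid exporter, went the other way, from 11.18, 13.05 and 15.25 TPM in WT to 14.6, 16.5 and 23.2 in TREM2-R47H, a fold change of 0.37 ± 0.11 (adjusted p 0.0305, limma) whose call was lost under 3 alternatives, at adjusted p 0.0691 to 0.106. Of the 8 members in the class of vesicular and lysosomal carriers, all SLC17, SLC18, SLC33 or SLC66 proteins, 1 was called higher and 3 lower. The lysosomal carriers SLC15A3, SLC15A4, SLC29A3 and SLC36A1 were counted in other classes by their substrates. SLC36A1 was called lower and the others were not called, at adjusted p 0.229 to 0.385 (limma). The class count is thus no count of all lysosomal members.

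Among the sugar and fatty acid carriers, SLC2A3, the glucose transporter GLUT3, had 17.92, 22.26 and 26.42 TPM in TREM2-R47H and 24.15, 31.63 and 39.36 in WT. It fell by 0.49 ± 0.14 on the log2 scale with an adjusted p of 0.0156 (limma), and SLC27A3 fell by 0.50 ± 0.14 (adjusted p 0.0155, limma). Both calls were lost with quantile normalization, at adjusted p 0.0534 and 0.0575, and with the stromal covariate, at 0.165 and 0.129 (limma). Changes of the mitochondrial carriers were small. SLC25A3 had 525.91, 550.0 and 565.82 TPM in WT and 550.22, 607.0 and 673.43 in TREM2-R47H, a fold change of 0.17 ± 0.05 with an adjusted p of 0.0103 (limma), and SLC25A6 rose by 0.20 ± 0.06 (adjusted p 0.0205, limma). With libraries 5 and 6 averaged, both lost their calls, at adjusted p 0.0521 and 0.0916 (limma), and SLC25A6 did so with the stromal covariate too, at 0.113. The other ADP/ATP carrier SLC25A5 had 686.98 to 746.57 TPM against 573.75 to 695.14 in WT and was not called (0.17 ± 0.07, adjusted p 0.0933, limma).

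The other 9 members called lower, beyond the 10 with the lowest p, were SLC49A3, SLC38A10, SLC35B2, SLC66A3, SLC22A18, SLC25A24, SLC26A2, SLC25A28 and SLC36A1. Their fold changes ran from -0.21 for SLC35B2, which carries the sulfate donor into the Golgi, to -0.82 for SLC22A18. SLC36A1, a proton-coupled amino acid carrier of lysosomes, fell by 0.61 ± 0.21 on the log2 scale and lay next to the limit with an adjusted p of 0.0491 (limma). It had 12.29, 23.58 and 29.48 TPM in TREM2-R47H and 19.69, 36.13 and 46.4 in WT, with overlap.

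**Figure D2:**
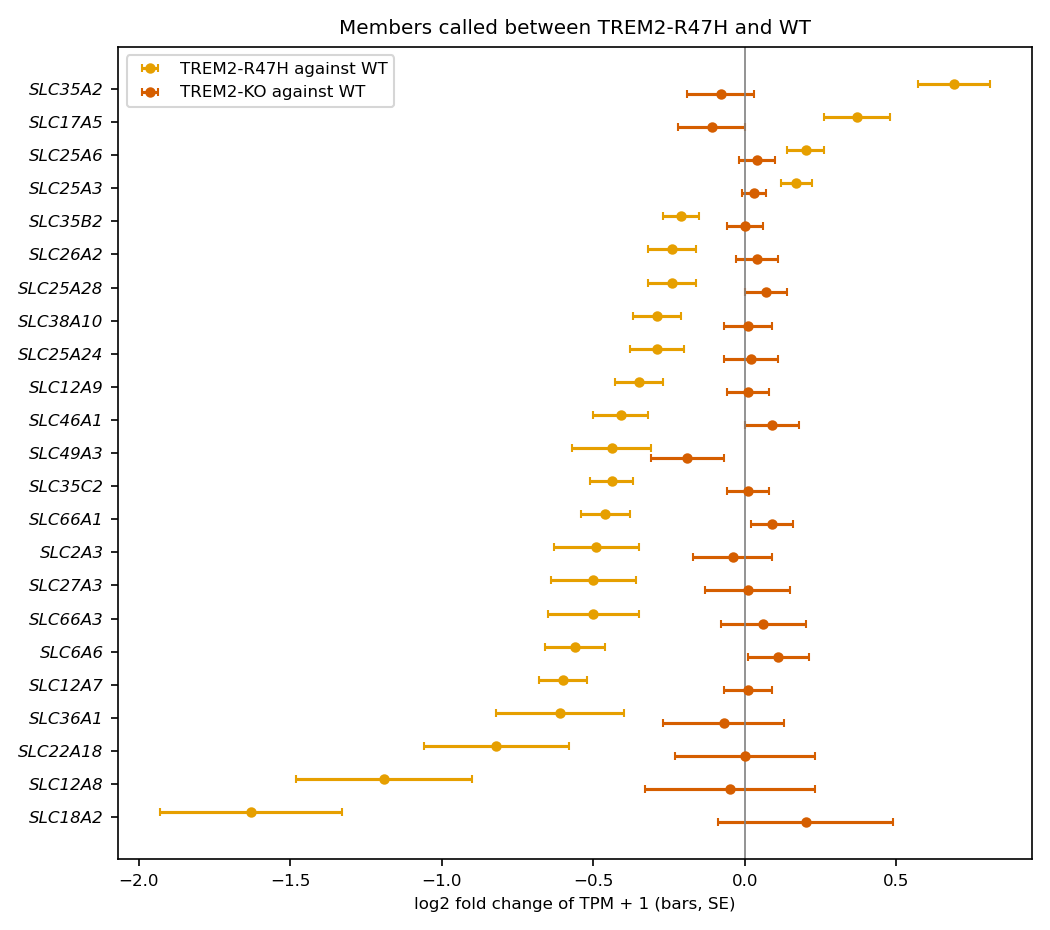
Log2 fold change of TPM + 1 with its SE for the 23 members called between TREM2-R47H and WT, beside the value of the same member between TREM2-KO and WT. SLC18A2 lies lowest at -1.63 and SLC35A2 highest at 0.69 in TREM2-R47H, and none of the 23 was called in TREM2-KO.

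Counts of members in this comparison moved with the fit. With the library number as a block, 42 members were called, where 19.6% of all genes were, and without the 4 libraries that stood apart, none of which is of these groups, 42 were called against 17.4% of all genes. Both sets held all 23. With the stromal score as a covariate the count was 15 (8.98% of members), of which 13 were among the 23, against 6.37% of all genes, and with quantile normalization it was 12 (7.19%), against 9.06%. Cell type markers differed too: 3 of 6 monocyte markers and 5 of 9 tested stromal and endothelial markers were lower in TREM2-R47H, with sums of 25.69 to 143.9 TPM against 108.7 to 2808 in WT and of 134.0 to 271.5 against 188.7 to 3205. Of 10 microglial markers, 1 was higher and 2 lower, with sums of 3702 to 5547 TPM against 4738 to 5302. Of 4 tested border macrophage markers, 1 was lower, with sums of 27.83 to 87.52 TPM against 53.79 to 337.6. CDH5 stayed below 1 TPM in every library. Their part in the members' changes was not tested beyond the covariate.

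TREM2-KO differed from WT in few carriers. 2 members were higher and 2 lower, where 0.283% and 1.33% of all genes were called, and the median log2 fold change was -0.021 for the members and -0.003 for all genes. SLC1A3, the glutamate and aspartate transporter, had 2.71, 8.97 and 17.47 TPM in TREM2-KO and 12.88, 17.74 and 30.14 in WT. All 8 knockout libraries lay below the WT median, with overlap at the edge, and the fold change was -1.01 ± 0.22 (adjusted p 0.00689, limma). A fit of the 2 groups alone gave it an adjusted p of 0.105 (limma). SLC16A10, which carries aromatic amino acids, had 2.24, 7.14 and 21.91 TPM against 9.87, 20.32 and 33.54 in WT and fell by 1.35 ± 0.36 on the log2 scale, close to the limit with an adjusted p of 0.0459 (limma). This call was lost under 5 of the alternatives, at adjusted p 0.0631 to 0.112 (limma).

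The members called higher in TREM2-KO were SLC2A4RG and SLC2A8. SLC2A4RG encodes no carrier but a DNA-binding protein named after the SLC2A4 gene, and it had 29.01, 37.17 and 45.57 TPM in TREM2-KO and 21.91, 24.69 and 33.09 in WT, a fold change of 0.51 ± 0.12 (adjusted p 0.0128, limma) that kept its call under every alternative. SLC2A8, the intracellular glucose transporter GLUT8, had 10.97, 15.03 and 18.97 TPM against 9.84, 10.71 and 14.06 and rose by 0.39 ± 0.10 (adjusted p 0.0459, limma). It lost its call under 4 alternatives, among them leaving out the libraries that stood apart (adjusted p 0.125, limma). With the library number as a block, 10 members were called in TREM2-KO against 3.95% of all genes, and without the libraries that stood apart 6 against 2.11%, with the 4 above in the first set. Of 10 microglial markers, 1 was lower in TREM2-KO than in WT, TREM2 itself. Against WT, 3 of 9 tested stromal and endothelial markers were lower in TREM2-KO (sums of 194.3 to 464.9 TPM against 188.7 to 3205), and 1 of 4 border macrophage markers (135.2 to 442.1 against 53.79 to 337.6) and 1 of 4 cycling markers (287.4 to 462.3 against 270.6 to 335.6) were higher. Beyond the stromal covariate, under which SLC2A8 lost its call (adjusted p 0.193, limma), their part was not tested.

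**Figure D3:**
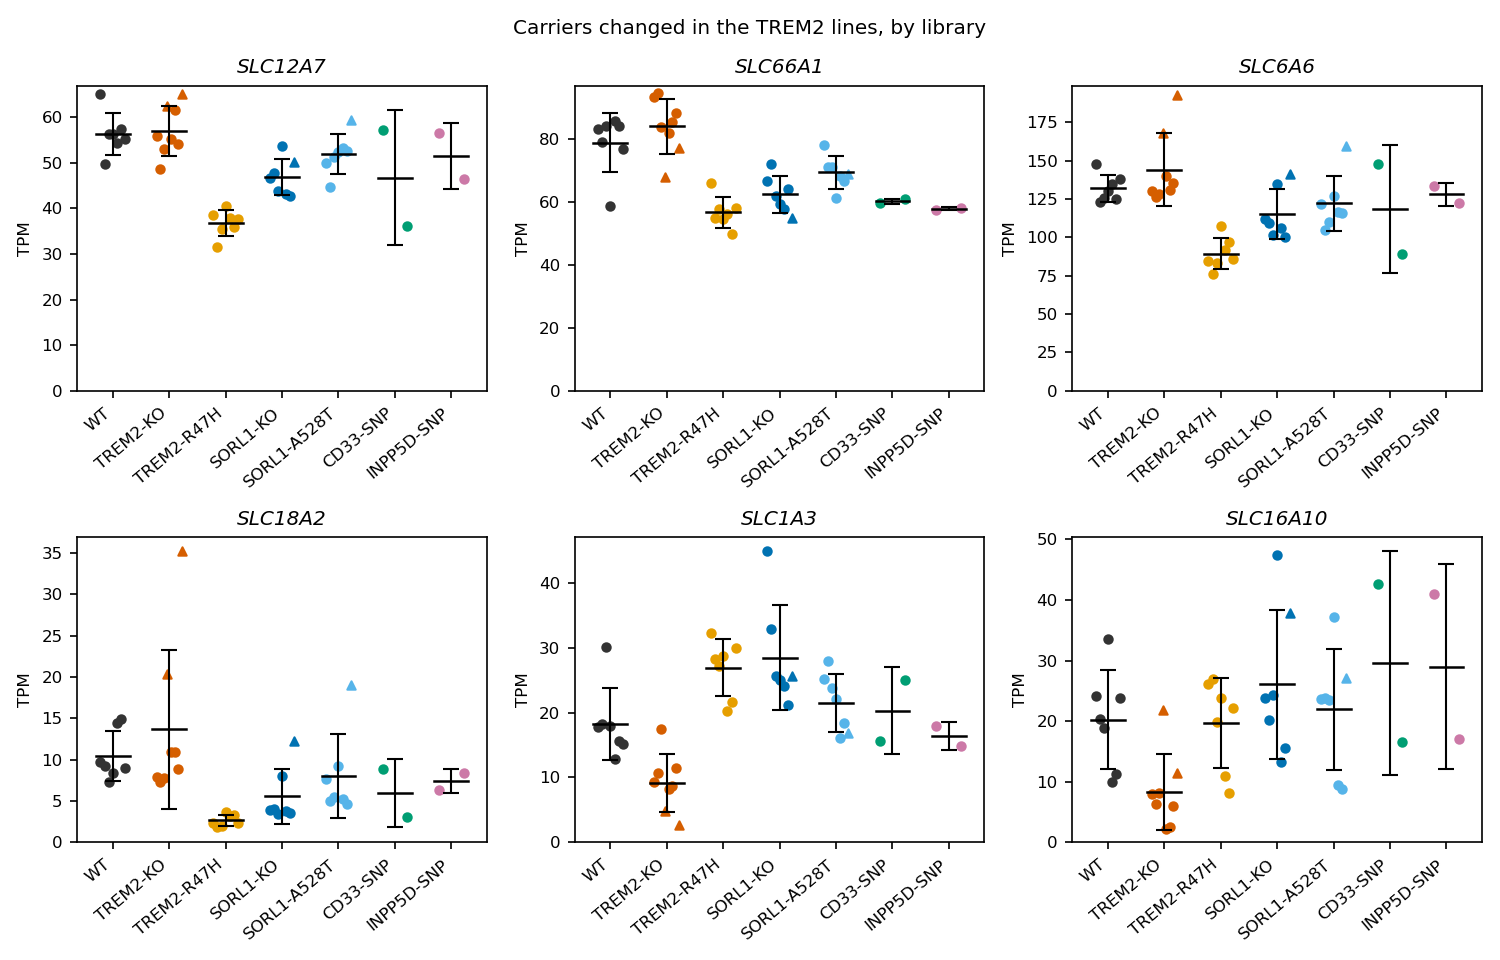
TPM of 6 carriers in every library, by group, with the group mean and SD as lines and bars; triangles are the 4 libraries that stood apart. SLC12A7, SLC6A6 and SLC18A2 in TREM2-R47H lie below every WT library, while SLC1A3 and SLC16A10 have TREM2-KO medians of 8.97 and 7.14 TPM against 17.74 and 20.32 in WT.

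The 2 TREM2 lines differed from each other in more members than either did from WT. TREM2-KO had 30 members higher and 16 lower than TREM2-R47H, where 14.7% and 6.58% of all genes were called. This split depended on the scaling, since median-ratio scaling gave 18 higher and 22 lower, against 9.84% and 9.42%, and quantile normalization 19 and 19, against 10% and 8.81%. The TREM2-KO and TREM2-R47H libraries are those already set against WT, so these values repeat the levels given above from another side. SLC12A7 (0.61 ± 0.08), SLC66A1 (0.56 ± 0.07), SLC35C2 (0.45 ± 0.07), SLC6A6 (0.67 ± 0.10) and SLC18A2 (1.83 ± 0.29) were higher in TREM2-KO with no overlap of libraries, at adjusted p 2.61e-07 to 1.05e-05 by limma. SLC2A4RG, SLC46A1, SLC12A9, SLC2A8 and SLC25A28 followed with fold changes of 0.30 to 0.66.

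Members lower in TREM2-KO than in TREM2-R47H included carriers of glutamate, betaine, myo-inositol, choline and ATP. SLC1A3 led with 2.71 to 17.47 TPM against 20.25 to 32.27, a fold change of -1.58 ± 0.22 with an adjusted p of 1.15e-06 (limma) and no overlap, although in TREM2-R47H it was not called against WT (0.56 ± 0.22, adjusted p 0.0984). SLC6A12, a betaine and GABA transporter, had 8.13, 13.54 and 23.51 TPM in TREM2-KO and 20.34, 27.94 and 32.69 in TREM2-R47H, a fold change of -0.80 ± 0.17 (adjusted p 0.000765, limma). SLC5A3, which takes up the osmolyte myo-inositol, fell by 0.72 ± 0.20 (adjusted p 0.00902, limma), with 5.19 to 10.2 TPM in TREM2-KO and 8.3 to 21.56 in TREM2-R47H. Neither SLC6A12 nor SLC5A3 was called against WT in either line, and their WT medians, 18.07 and 9.04 TPM, lay between the medians of the 2 lines. The taurine transporter SLC6A6 went the other way, higher in TREM2-KO at 0.67 ± 0.10 (adjusted p 5.13e-06, limma). Members that carry osmolytes thus did not move as a set.

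SLC44A2, a choline transporter-like protein, had 3.69, 5.885 and 16.62 TPM in TREM2-KO and 12.22, 17.73 and 23.22 in TREM2-R47H, with a fold change of -1.20 ± 0.29 (adjusted p 0.00258, limma). Its highest TREM2-KO values came from replicates 4 and 8, at 12.33 and 16.62. SLC17A9, the vesicular ATP transporter, had 2.45 to 11.75 TPM against 10.24 to 20.93 and a fold change of -0.97 ± 0.29 (adjusted p 0.0126, limma). SLC16A10 (-1.31 ± 0.36), SLC17A5 (-0.48 ± 0.11), SLC35A2 (-0.77 ± 0.11), SLC10A3 (-0.32 ± 0.10) and SLC25A3 (-0.15 ± 0.04) were the other named members on this side. SLC10A3 lost its call without the libraries that stood apart (adjusted p 0.0765, limma) and SLC25A3 under 3 alternatives, at adjusted p 0.0551 to 0.082. SLC2A5, the fructose carrier, was also lower, with 7.97 to 40.1 TPM in TREM2-KO and 29.19 to 48.51 in TREM2-R47H (-0.74 ± 0.26, adjusted p 0.0341, limma). In this comparison 5 of 6 monocyte markers and all 4 tested border macrophage markers were higher in TREM2-KO. Of 10 microglial markers, 3 were higher and 2 lower. Higher too were 2 of 4 cycling markers and 1 of 9 tested stromal and endothelial markers, and 1 of 2 tested neural markers was lower. The part of these markers was not tested.

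In the SORL1 lines the member calls concerned 3 genes, SLC17A5, SLC66A1 and SLC35A2. In SORL1-KO 1 member was higher and 1 lower than in WT, where 0.256% and 0.835% of all genes were called. The sialic acid exporter SLC17A5 had 15.44, 16.95 and 27.81 TPM in SORL1-KO, above every WT library, and rose by 0.50 ± 0.11 (adjusted p 0.0238, limma). SLC66A1 had 54.84, 61.89 and 71.99 TPM and fell by 0.33 ± 0.08 on the log2 scale (adjusted p 0.025, limma). Each of these calls was lost under 4 alternatives, at adjusted p 0.0526 to 0.196 for SLC17A5 and 0.0503 to 0.138 for SLC66A1 (limma). Without the libraries that stood apart, 4 members were called, these 2 among them, where 1.17% of all genes were. Of 10 microglial markers, 1 was higher in SORL1-KO than in WT. In SORL1-KO, 3 of 9 tested stromal and endothelial markers were lower than in WT, with sums of 145.6 to 424.1 TPM against 188.7 to 3205. Both calls were lost with the stromal score as a covariate, within the ranges just given.

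SLC17A5 had a higher median than WT in every line except TREM2-KO. SORL1-A528T had 15.67, 18.67 and 22.88 TPM, CD33-SNP 17.39 and 19.13, and INPP5D-SNP 18.22 and 18.68, all above the highest WT library at 15.25, while TREM2-KO had 9.66, 11.02 and 15.99. Against WT, TREM2-R47H and SORL1-KO passed the test, and the value of SORL1-A528T was 0.48 ± 0.11 with an adjusted p of 0.0869 (limma). All of these comparisons rest on the same 7 WT libraries. For SLC66A1, CD33-SNP had 59.6 and 60.76 TPM and INPP5D-SNP 57.42 and 58.13. The INPP5D-SNP values lay below every WT library and the CD33-SNP values above WT replicate 4 alone, and neither line was called.

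SLC35A2 was the member called most often. It encodes the carrier that brings UDP-galactose into the Golgi, and it lies on chromosome X at positions 48903180 to 48911958 of GRCh38 (GENCODE 29). It had 16.8, 21.38 and 24.52 TPM in WT, 14.2, 19.41 and 27.67 in TREM2-KO, 13.68, 19.27 and 22.25 in SORL1-KO, and 18.68 and 27.64 in CD33-SNP. In contrast it had 29.01, 35.57 and 42.46 TPM in TREM2-R47H, 29.96, 35.65 and 40.41 in SORL1-A528T, and 29.99 and 34.81 in INPP5D-SNP. The libraries of these 3 lines lay above all libraries of the other 4 groups.

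SLC35A2 was the 1 member called between SORL1-A528T and WT, where 0.0471% of all genes were, with a fold change of 0.73 ± 0.12 (adjusted p 0.00157, limma). It was also the 1 member called between SORL1-KO and SORL1-A528T, where 0.0942% of all genes were, at -0.90 ± 0.12 (adjusted p 9.08e-06, limma). In TREM2-R47H it rose by 0.69 ± 0.12 (adjusted p 9.32e-05, limma). These calls, and that between the TREM2 lines, held under every alternative run. In INPP5D-SNP, with 2 libraries, the value was 0.59 ± 0.17 and was not called (adjusted p 0.606, limma).

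Within 200 kb, 12 protein-coding genes passed the filter, SLC35A2 included. The 4 that follow SLC35A2 towards higher positions, PIM2, OTUD5, GRIPAP1 and TFE3, had positive fold changes of 0.32 or more in the same 3 lines, and not all were called. TFE3, a transcription factor of lysosomal genes, had fold changes of 0.41 ± 0.08, 0.73 ± 0.08 and 0.79 ± 0.12 in TREM2-R47H, SORL1-A528T and INPP5D-SNP, each called (adjusted p 0.000318, 3.88e-07 and 0.000289, limma). GRIPAP1 had 0.32 ± 0.09, 0.62 ± 0.09 and 0.66 ± 0.14 and was called in the first 2 (adjusted p 0.0168 and 0.000437, limma). OTUD5 was called in TREM2-R47H (0.52 ± 0.12, adjusted p 0.00255, limma), and PIM2, at 0.70 to 0.99, in none. PQBP1 and TIMM17B on one side and CCDC120, PRAF2 and WDR45 on the other were not called in any line against WT. The neighbourhood was chosen after the value of SLC35A2 was seen.

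**Figure D4:**
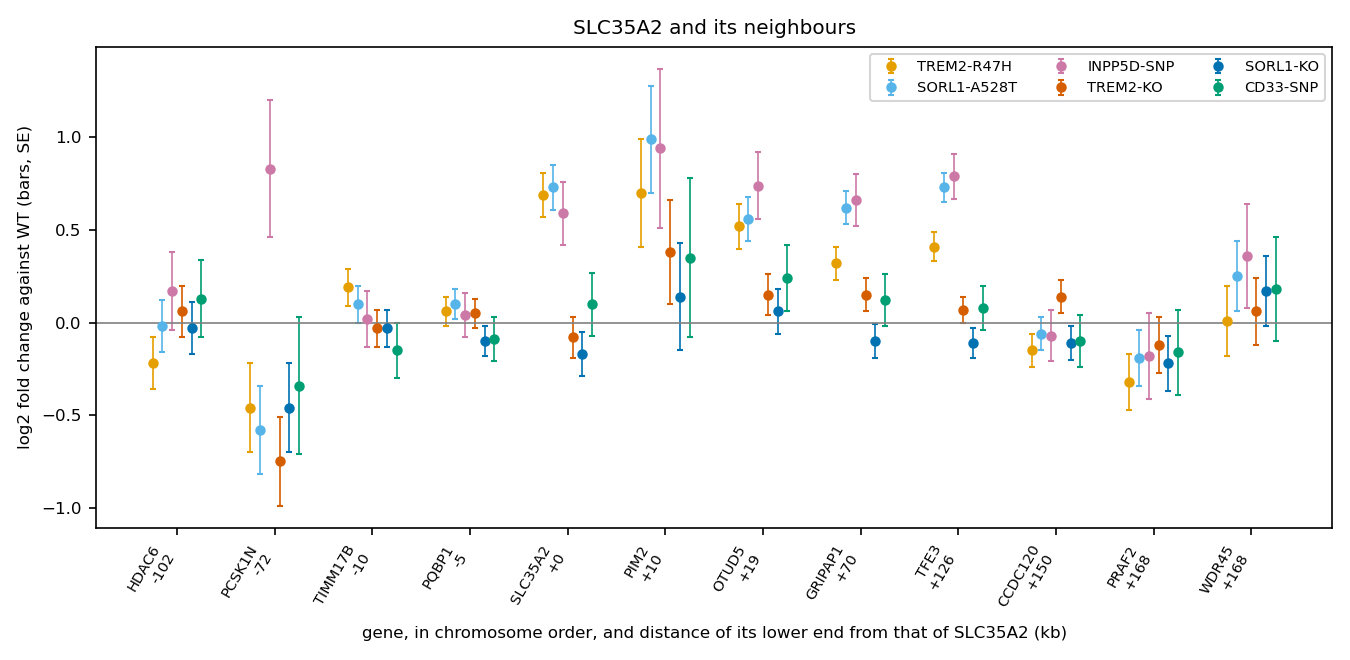
Log2 fold change against WT with its SE for SLC35A2 and the other protein-coding genes within 200 kb that passed the filter, in chromosome order, for the 6 edited lines. From SLC35A2 to TFE3 the points of TREM2-R47H, SORL1-A528T and INPP5D-SNP lie above zero together, from 0.32 to 0.99. Those of SORL1-KO lie between -0.17 and 0.14, of TREM2-KO between -0.08 and 0.38 and of CD33-SNP between 0.08 and 0.35. PIM2 is the highest point in each of these lines, and none of their points was called.

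CD33-SNP and INPP5D-SNP gave no member calls by limma. In CD33-SNP 0% of all genes and in INPP5D-SNP 0.0337% were called, and in each line 9 members had an unadjusted p below 0.05. The lowest adjusted p among members was 1 in CD33-SNP and 0.583 in INPP5D-SNP, the latter for SLC66A1. Leaving out either library of a pair gave 0 calls in both lines, where the remaining library is assumed to vary like the other groups. A fit of INPP5D-SNP and WT alone called 6 members (3.59%), near the 3.3% of all genes that it called. SLC7A5 was at 80.76 and 84.4 TPM in INPP5D-SNP, below all WT libraries, which had 101.65 to 211.38, and at 76.13 and 137.33 in CD33-SNP, and neither difference was called.

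The carriers of glucose, lactate, amino acids and zinc that are best known in macrophages were called in few comparisons. The iron transporters SLC40A1, SLC11A1 and SLC11A2 are no members and were not examined here. SLC2A5 had a mean of 27.3 ± 9.63 TPM (SD, n = 7) in WT, 46.7 ± 9.07 (n = 7) in SORL1-KO and 38.1 ± 7.19 (n = 7) in TREM2-R47H, and neither line was called against WT (adjusted p 0.124 and 0.218, limma). The glucose transporter SLC2A1 was at 24.8 ± 6.90 TPM in WT and at means of 13.9 to 24.6 in the edited lines. SLC16A1, which moves lactate and pyruvate, had 59.7 ± 6.21 TPM in WT and means of 49.6 to 72.8 in the edited lines, and SLC16A3 939 ± 149 and 790 to 883. None of these was called against WT.

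The heavy chain SLC3A2 had 249 ± 36.8 TPM in WT and means of 197 to 262 elsewhere, and the glutamine carriers SLC1A5 and SLC38A2 had 90.7 ± 13.8 and 94.5 ± 13.4 in WT. The cystine carrier SLC7A11 was near 1 TPM in every group, with a WT mean of 1.32 ± 0.445, and is no member. SLC7A7 at 236 ± 48.3 TPM and the lysosomal SLC15A4 at 30.1 ± 3.52 in WT were called between the TREM2 lines only, at 0.34 ± 0.10 and 0.32 ± 0.10 (adjusted p 0.0139 and 0.0255, limma). The amino acid carrier SLC43A2 was likewise called there only, higher in TREM2-KO at 0.94 ± 0.31 (adjusted p 0.029, limma). The zinc exporter SLC30A1 at 20.1 ± 2.12, the zinc and manganese importer SLC39A8 at 19.7 ± 0.798, the mitochondrial iron importer SLC25A37 at 18.3 ± 5.10 and the fatty acid carrier SLC27A4 at 29.2 ± 3.58 in WT were called nowhere.

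Libraries of the same line differed from each other in an ordered way, and SLC7A5 marked the order. SLC7A5 carries leucine and other large neutral amino acids into the cell. It was at 29.36 and 32.49 TPM in TREM2-KO replicates 4 and 8, at 44.79 in SORL1-KO replicate 7 and at 44.16 in SORL1-A528T replicate 7, the 4 libraries that stood apart, while its medians in the 5 large groups were 132.5 to 195.2. SLC43A2, the amino acid carrier LAT4, was at 166.02, 170.27, 142.7 and 133.18 TPM in the same 4 libraries, with medians of 31.22 to 59.13. Where the one was low the other was high. The order followed the library number in part. In replicate 4 of the 5 large groups SLC7A5 was at 29.36 to 110.14 TPM, against 152.18 to 215.17 in replicate 1. SLC43A2 was at 67.63 to 166.02 TPM in replicate 4 and at 31.22 to 56.19 in replicate 1. Variation between libraries of a line is thus in part shared between lines. What same-numbered libraries share is not stated in the labels and was not tested.

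After subtracting group means, SLC43A2 had a Pearson r of -0.95 and a Spearman rho of -0.86 with SLC7A5 over 40 libraries, and r was -0.94 without the 2 libraries farthest from the median. Within the 5 large groups r was -0.76 to -0.99. For SLC7A1, the arginine and lysine importer, r was 0.96 and rho 0.92, and the values within groups were 0.76 to 1.0. SLC7A5 was taken as the axis, and the carriers set against it were named, after the values were seen, and the libraries share whatever sets their composition, so these correlations are a description with no test. TPM values in a library also share 1 total.

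**Figure D5:**
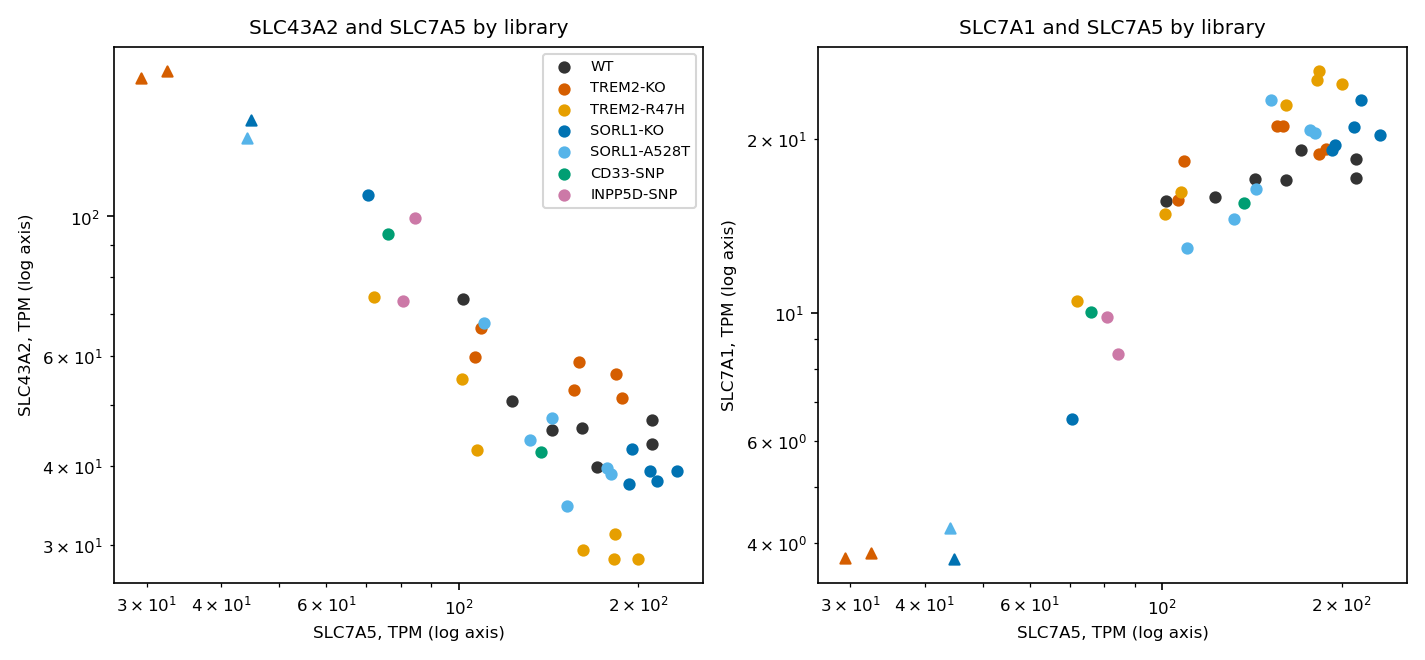
TPM of SLC43A2 and of SLC7A1 against that of SLC7A5 in each of 40 libraries, on log axes, coloured by group; triangles are the 4 libraries that stood apart. In those 4 libraries SLC43A2 is at 133.18 to 170.27 TPM and SLC7A1 at 3.75 to 4.25, the highest and the lowest values in the plot.

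Of the 166 other members, 23 had r of at least 0.8 with SLC7A5 and 13 had r of -0.8 or less, or 13.9% and 7.83%, against 10.8% and 8.21% of all genes that passed the filter. The first axis of the members' variation within groups held 41.6% of their variance. On the positive side were the vitamin carriers SLC5A6 (biotin and pantothenate) and SLC19A1 (folate), the sodium, potassium and chloride importer SLC12A2, and the mitochondrial carriers SLC25A32 (folate) and SLC25A22 (glutamate), each with r of 0.94. SLC39A8 (0.88), SLC39A14 (0.87), SLC16A1 (0.86) and the phosphate importer SLC20A1 (0.83) followed. On the negative side lay SLC46A3 (-0.94), SLC45A4 (-0.91), SLC18A2 (-0.88), SLC6A6 (-0.81) and the lysosomal nucleoside carrier SLC29A3 (-0.80). Without the 4 libraries that stood apart, 15 members had r of at least 0.8 and 3 of -0.8 or less, SLC43A2 at -0.89, SLC8A1 at -0.86 and SLC46A3 at -0.84. The share of all genes at these limits was not computed without those libraries, so these counts cannot be set against it. SLC5A6, SLC19A1, SLC12A2, SLC25A32 and SLC25A22 stayed at 0.86 to 0.92, while SLC39A8, SLC39A14, SLC16A1 and SLC20A1 were at 0.70, 0.65, 0.54 and 0.65. SLC45A4, SLC18A2, SLC6A6 and SLC29A3 were at -0.76, -0.71, -0.62 and -0.37, so these named values rest in part on those 4 libraries.

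In TPM, SLC16A1 was at 29.21 to 33.91 in the 4 libraries that stood apart, where WT had 51.96 to 69.62, and SLC39A8 at 6.57 to 10.79, where WT had 18.82 to 21.35. SLC7A8, a neutral amino acid exchanger, was at 122.83 to 153.43 TPM there and at 37.03 to 86.45 in WT, SLC37A2 at 239.05 to 346.86 and 126.45 to 176.74, and SLC29A3 at 23.67 to 32.11 and 10.63 to 14.84. SLC44A2 was at 40.65 and 44.39 TPM in the 2 SORL1 libraries but at 12.33 and 16.62 in the 2 TREM2-KO libraries, so the 4 were not alike in every carrier. Genes outside the family differed by set in their r with SLC7A5. All 9 tested stromal and endothelial markers were negative, from -0.79 for PECAM1 to -0.12 for PDGFRB. All 6 monocyte markers were too, from -0.68 for FCN1 to -0.37 for S100A9. So were all 4 tested border macrophage markers, from -0.84 for FOLR2 to -0.20 for LYVE1. Among 10 microglial markers r ran from -0.89 for C1QA to 0.20 for TMEM119, which alone was positive. All 4 cycling markers were positive, from 0.12 for TOP2A to 0.74 for CDK1. Among the regulators r ran from -0.96 for TXNIP, which lowers glucose uptake, to 0.83 for PHGDH, an enzyme of serine synthesis. Genes of the amino acid and stress response lay on both sides, with ATF4 at 0.72 and SESN2, DDIT3 and CHAC1 at -0.85, -0.44 and -0.42.

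The members varied within groups with a median SD of 0.24 on the log2 scale, against 0.27 for all genes that passed the filter. The most variable were SLC43A3, SLC38A5 and SLC25A20, at 0.943, 0.835 and 0.778, named after their values were seen, followed by SLC7A5 at 0.763 and SLC16A10 at 0.73. SLC25A3 was the least variable at 0.077.

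Promoters were searched because members varied together within groups. The 250 bases before each RefSeq start (GRCh38.p14) were available for 137 members. The E-box CACGTG, read the same on both strands and bound by MYC, USF and the TFE3 family, was in 27 of 137 members (19.7%), in 6.34% of 35116 promoters, and in 7.73% of all genes and 11.1% of those that passed the filter and were matched. It was in 5 of 17 matched members with r of at least 0.8 (SLC7A5 included), in 0 of 11 with r of -0.8 or less, and in 5 of 15 matched members called lower in TREM2-R47H. The amino acid response letters TGATGNAA, on either strand, were in 6 of 137 members (4.38%) and 3.14% of promoters. By gene they were in 3.89% of all genes and 2.27% of those that passed the filter and were matched. They were in neither SLC7A5 nor SLC7A1 within the windows used. A match is a description of the letters alone. The windows below run 5′ to 3′ on the strand of the gene with each match in capitals. The first 4 are of members that followed SLC7A5, the next 3 of members lower in TREM2-R47H, and the last 2 of a pair of SLC1 amino acid carriers with the amino acid response letters.

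SLC7A5, chr16:87869606-87869663, minus strand: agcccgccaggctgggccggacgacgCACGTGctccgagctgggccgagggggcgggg
SLC20A1, chr2:112645707-112645764, plus strand: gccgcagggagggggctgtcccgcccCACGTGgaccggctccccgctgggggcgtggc
SLC39A8, chr4:102345519-102345576, minus strand: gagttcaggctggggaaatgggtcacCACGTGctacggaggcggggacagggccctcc
SLC25A33, chr1:9539413-9539464, plus strand: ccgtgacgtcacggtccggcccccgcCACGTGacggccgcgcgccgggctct
SLC12A7, chr5:1112085-1112142, minus strand: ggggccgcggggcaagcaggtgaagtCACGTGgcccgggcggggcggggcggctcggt
SLC35B2, chr6:44257343-44257400, minus strand: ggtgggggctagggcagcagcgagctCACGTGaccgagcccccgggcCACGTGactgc
SLC36A1, chr5:151447534-151447591, plus strand: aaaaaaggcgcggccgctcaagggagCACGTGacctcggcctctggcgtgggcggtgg
SLC1A3, chr5:36596342-36596401, plus strand: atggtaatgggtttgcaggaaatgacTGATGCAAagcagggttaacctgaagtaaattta
SLC1A5, chr19:46784878-46784937, minus strand: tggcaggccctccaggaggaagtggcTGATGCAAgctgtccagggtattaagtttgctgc

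The E-box lay 130 bases before the start of SLC7A5, 53 before that of SLC12A7 and 43 before that of SLC36A1. The extended form TCACGTGA, common in promoters of lysosomal genes, was in 6 of 137 members (4.38%) and in 0.854% of promoters. By gene it was in 1.04% of all genes and 2.09% of those that passed the filter and were matched. Among the members lower in TREM2-R47H it was in SLC35B2 and SLC36A1. In SLC35B2 it is the first match shown with the base on either side, and in SLC36A1 it is another match, 9 bases before the start and outside the window shown. In SLC1A3 the amino acid response letters lay 220 bases before the start, and in SLC1A5 97.

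Genes that work beside the carriers were taken from a list of 73, of which 69 passed the filter. Against WT, 1 was higher and 1 lower in TREM2-KO and 1 higher and 5 lower in TREM2-R47H, and none was called in the SORL1, CD33 or INPP5D lines. The 5 lower in TREM2-R47H are 7.25% of the list, where 8.77% of all genes were called lower, and 1 gene is 1.45%, where 2.63% were called higher in TREM2-R47H and 0.283% higher and 1.33% lower in TREM2-KO. The list's median log2 fold changes in those comparisons were -0.07 and -0.06, where all genes had -0.003 and -0.057. NHERF1, a scaffold that holds carriers and channels at the membrane, had 46.12, 53.77 and 61.77 TPM in TREM2-KO, 32.59, 39.58 and 52.63 in WT and 24.08, 31.72 and 33.52 in TREM2-R47H. It rose by 0.44 ± 0.12 in TREM2-KO and fell by 0.38 ± 0.12 in TREM2-R47H (adjusted p 0.0451 and 0.0377, limma), and the 2 lines did not overlap (0.82 ± 0.12, adjusted p 3e-06, limma). The TREM2-KO call was lost under 2 alternatives, at adjusted p 0.0978 and 0.108.

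SGK1, a kinase that raises the activity of many carriers, ran the opposite way, with 42.69 to 64.47 TPM in TREM2-KO, 62.27 to 91.52 in WT and 69.91 to 116.85 in TREM2-R47H. It fell by 0.44 ± 0.12 in TREM2-KO, close to the limit at adjusted p 0.0442 and lost under 6 alternatives, and differed by -0.77 ± 0.12 between the lines (adjusted p 6.23e-06, limma). NEDD4L, a ubiquitin ligase that SGK1 inhibits, fell by 0.41 ± 0.10 in TREM2-R47H (adjusted p 0.00434, limma). MPC1, a subunit of the mitochondrial pyruvate carrier, was lower in TREM2-KO than in TREM2-R47H (-0.52 ± 0.10, adjusted p 0.000213, limma). The organic anion carrier SLCO4A1 fell by 1.06 ± 0.32 in TREM2-R47H, with 8.21 to 20.34 TPM against 27.12 to 38.74 in WT (adjusted p 0.0234, limma), and the metal-responsive factor MTF1 and the mitochondrial protein MTCH1 fell by 0.46 ± 0.13 and 0.27 ± 0.07 (adjusted p 0.0125 and 0.0131, limma). MTCH1 lost its call under 3 alternatives, at adjusted p 0.0625 to 0.13, SLCO4A1 under 2, at 0.0557 and 0.074, and MTF1 with quantile normalization, at 0.0956.

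Some values may hold reads of other genes. SLC35E2A and SLC35E2B are near-identical copies. SLC8A1 overlaps the antisense gene SLC8A1-AS1, and although the library kit keeps strand, whether counting used it is not stated. SLC12A5, a potassium-chloride cotransporter of neurons, starts 5128 bases from the end of MMP9 on chromosome 20, and whether reads of MMP9 entered its level was not tested.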

How the data were processed

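The authors deposited TPM per gene for 40 libraries. Per the submitters' processing notes the authors used cutadapt 1.18, STAR 2.7, RSEM 1.3.1 and DESeq2. Which build they used, the sources used here do not give. TPM keeps no depth, so no count test was run. Symbols came from reference tables (68.8% of IDs), positions from GENCODE 29 (94.2%) and promoters from RefSeq. Genes at 1 TPM or more in at least 7 libraries (14855) were fitted with limma 3.58.1 (R 4.3.3) on log2(TPM + 1) with 7 group means over all libraries, a trended, robust variance and Benjamini-Hochberg adjustment over these genes, two-sided. The fit was tested on simulated data. Members and lists were chosen with earlier results of these data known. Named were the 12 highest members, up to 10 called members per direction and comparison, a list of 23 known carriers, and up to 4 genes per comparison from the list of other carriers, partners and regulators. Same-numbered libraries deviated together in TREM2-KO and WT (lowest correlation 0.114), TREM2-R47H and WT (0.14) and both SORL1 lines (0.306). The main fit, which gave the reported fold changes and p-values, did not use this pairing. The library number entered only as a block among the alternatives. Alternatives covered the pseudocount, filter, scaling, block, stromal score and libraries left out; averaging libraries 5 and 6 was chosen after seeing the data.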

Additional observations from a re-analysis of the deposited data

Results flagged for a closer look

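In 37 of 240 sets of values tested, 1 gene in 1 line of 7 or 8 libraries each, a single library lay far from the nearest of the others for its group's range, over 26 genes. Chance flags about 1 in 20 groups of this kind, and values of 1 library are not independent. Values are in TPM, and no explanation was tested.

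SORL1-A528T replicate 7 had the highest value of its group for SLC18A2 (19.03), SLC27A3 (14.32), SLC29A3 (32.11), SLC37A2 (314.19), SLC43A2 (133.18), SLC44A2 (44.39), SLC46A1 (55.76), SLC6A6 (159.55) and SLC7A8 (141.21) and the lowest value of its group for SLC17A9 (3.4), SLC25A6 (538.73) and SLC39A8 (8.05). WT replicate 4 had the highest value of its group for SLC15A3 (237.04), SLC39A8 (21.35), SLC43A2 (73.91) and SLC7A7 (342.96) and the lowest value of its group for SLC1A5 (59.93), SLC35C2 (63.5) and SLC66A1 (58.76). TREM2-R47H replicate 4 had the highest value of its group for SLC15A4 (37.2), SLC17A5 (23.2), SLC37A2 (193.88) and SLC7A8 (69.43). SORL1-KO replicate 7 had the highest value of its group for SLC29A3 (31.05) and SLC44A2 (40.65) and the lowest value of its group for SLC25A5 (532.08). TREM2-KO replicate 4 had the highest value of its group for SLC16A10 (21.91) and the lowest value of its group for SLC1A5 (49.57). TREM2-KO replicate 8 had the highest value of its group for SLC18A2 (35.2) and the lowest value of its group for SLC30A1 (14.08). WT replicate 3 had the highest value of its group for SLC1A3 (30.14) and SLC29A3 (14.84). SORL1-KO replicate 2 had the highest value of its group for SLC2A4RG (35.3). SORL1-KO replicate 4 had the highest value of its group for SLC12A9 (49.64). TREM2-KO replicate 2 had the highest value of its group for SLC10A3 (23.02). TREM2-R47H replicate 2 had the highest value of its group for SLC10A3 (29.12). TREM2-R47H replicate 3 had the lowest value of its group for SLC2A4RG (19.7).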

How the results depend on the processing

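Of 52 named calls, 34 were kept under every alternative run and 0 reversed. Losses numbered 10 with the stromal score, 10 with libraries 5 and 6 averaged, 8 without the filter, 7 with quantile normalization, 7 with the 2 groups alone, 2 with a pseudocount of 5 TPM, 2 without the libraries that stood apart, 1 with median-ratio scaling, and 0 with a pseudocount of 0.1 TPM or the block. Counts of members called moved by over 1.5 times as follows, and the cause was not tested. With the replicate number as a block, the counts against WT were 10 in TREM2-KO, 42 in TREM2-R47H, 14 in SORL1-KO, 3 in SORL1-A528T, 4 in CD33-SNP and 26 in INPP5D-SNP. In the last 4 it called 4.95%, 0.855%, 0.256% and 10.5% of all genes. The block set replicates 1 and 2 of CD33-SNP and INPP5D-SNP beside replicates 1 and 2 of the other lines. In the order of the deposited columns they stand among replicates 4 and 5. Which match is right is not stated in the labels, so the block counts of CD33-SNP and INPP5D-SNP are uncertain. In their replicate 1, SLC1A5 was at 54.25 and 51.42 TPM. Replicate 4 of the 5 large groups had 49.57 to 68.33 and replicate 1 had 94.37 to 103.87. SLC43A2 was at 93.7 and 99.44 TPM, against 67.63 to 166.02 and 31.22 to 56.19. In their replicate 2, SLC1A5 was at 77.86 and 69.87 TPM, below replicates 2 and 5 of those groups. These genes were picked after their values were seen, and the match was not tested. The other block counts rest on the same coding. For the SORL1, CD33 and INPP5D lines against WT, and between the TREM2 lines, the correlations fell below the limit of 0.1 in some pair. They ran from 0.092 to 0.54 between the TREM2 lines. Comparisons that missed the limit were not counted as paired, and whether their libraries share more than a number was not tested. Where 7 pairs could be compared, at most 4 libraries correlated best with their own number. Between the SORL1 lines the block left the count at 1. Without the libraries that stood apart, 42 members were called in TREM2-R47H, 4 in SORL1-KO and 2 in SORL1-A528T, the latter against 0.0875% of all genes. For TREM2-R47H, quantile normalization gave 12 and the stromal score 15. For TREM2-KO, no filter gave 2 and a fit of the 2 groups alone 1. For SORL1-KO, no filter, the 2 groups alone, the stromal score and averaged libraries each gave 0 by limma, with 19, 20, 11 and 15 members at an unadjusted p below 0.05. For INPP5D-SNP the 2 groups alone gave 6. Leaving out either replicate gave 0 to 0 in CD33-SNP and INPP5D-SNP. Depth per library is unknown, which limits what low genes can show, and groups of 2 libraries limit the CD33 and INPP5D lines.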
